A study of Mus musculus with 12 samples.

Results

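A set of well known target genes of the transcription factor p53 were followed through the 12 libraries of the series. The 10 genes were Mdm2, Cdkn1a, Bax, Bbc3, Ccng1, Trp53inp1, Sesn1, Sesn2, Phlda3 and Gadd45a, taken by symbol from the 55809 gene symbols of the count tables, and each symbol was found. They were chosen as a readout of cell damage that Cre recombinase or a virus might leave in sorted cells. All 10 passed the filter on low counts in both comparisons.

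The study labelled hypothalamic cells, sorted them by fluorescence and sequenced their mRNA. TOM positive and TOM negative cells (3 libraries each) were sorted from the hypothalamus of untreated Mc4r-Cre; Ai14 mice aged 4 weeks, in which Mc4r-driven Cre turns on a red fluorescent protein, tdTomato (TOM). AAV-Cre and AAV-GFP cells (3 libraries each) were taken from the paraventricular nucleus (PVH), a hypothalamic centre of appetite control. Those mice were Otp fl/fl; Ai14, were 26 weeks old and had received an adeno-associated virus (AAV) 12 weeks before dissection. The sort kept TOM positive cells in the AAV-Cre group, while in the AAV-GFP group it kept GFP positive cells.

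These designs limit what the genes can be read against. TOM marks a cell that has Cre now or had it earlier, so TOM positive cells differ from TOM negative cells in Cre and in cell type together. AAV-Cre cells differ from AAV-GFP cells in Cre, in the deletion of the floxed Otp gene and in the sort colour, and these cannot be told apart. Both AAV groups carry virus and the PVH has no uninjected group here, so the virus itself has no comparison. The sources used here do not name the promoters of the viral transgenes. Nothing in the labels ties the 3 libraries of a group to different animals. The spread behind each p-value is therefore that between libraries and may be technical.

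The protein p53, encoded in mice by Trp53, is held at a low level in resting cells and is stabilised after DNA breaks and other stress. It then switches on genes that stop the cell cycle, repair DNA, slow growth signalling or start apoptosis. MDM2 is both its target and the ubiquitin ligase that marks p53 for destruction, which closes a feedback loop. Many of these targets also answer to other transcription factors, so a single member is not specific to p53.

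Promoter sequences are shown for the members that passed the test in TOM positive cells, because p53 acts on its targets by binding a DNA element near them. The RefSeq windows (GRCm38.p6) run from 250 bases before to 50 bases after an annotated start. They hold 9 of the 10 members in 13 windows, and Trp53inp1 was not among them. Each line is written 5′ to 3′ on the strand of the gene, and capitals mark matches to the p53 half-site consensus, a palindrome that is the same on both strands. Cdkn1a and Sesn1 each have another window, which held no such match and is not printed.
Mdm2, chr10:117710709-117711008, minus strand: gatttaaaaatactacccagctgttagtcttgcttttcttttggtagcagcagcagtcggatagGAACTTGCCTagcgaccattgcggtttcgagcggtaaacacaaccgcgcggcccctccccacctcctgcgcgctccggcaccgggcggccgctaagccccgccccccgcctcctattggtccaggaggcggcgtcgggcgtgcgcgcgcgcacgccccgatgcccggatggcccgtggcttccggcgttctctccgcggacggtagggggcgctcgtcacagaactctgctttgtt
Ccng1, chr11:40755237-40755536, minus strand: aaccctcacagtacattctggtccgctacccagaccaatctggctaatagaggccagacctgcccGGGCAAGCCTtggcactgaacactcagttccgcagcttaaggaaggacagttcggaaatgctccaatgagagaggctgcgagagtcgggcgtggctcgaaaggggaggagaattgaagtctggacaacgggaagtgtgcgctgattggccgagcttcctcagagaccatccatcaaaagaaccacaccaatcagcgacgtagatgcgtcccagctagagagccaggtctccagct
Cdkn1a upstream start, chr17:29090729-29091028, plus strand: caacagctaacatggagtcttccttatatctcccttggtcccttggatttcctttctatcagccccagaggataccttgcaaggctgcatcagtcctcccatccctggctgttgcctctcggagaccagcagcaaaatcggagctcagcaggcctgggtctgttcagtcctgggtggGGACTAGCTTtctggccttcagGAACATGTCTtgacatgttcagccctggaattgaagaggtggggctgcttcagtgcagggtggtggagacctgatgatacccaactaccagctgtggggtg
Sesn1 downstream start, chr10:41887189-41887488, plus strand: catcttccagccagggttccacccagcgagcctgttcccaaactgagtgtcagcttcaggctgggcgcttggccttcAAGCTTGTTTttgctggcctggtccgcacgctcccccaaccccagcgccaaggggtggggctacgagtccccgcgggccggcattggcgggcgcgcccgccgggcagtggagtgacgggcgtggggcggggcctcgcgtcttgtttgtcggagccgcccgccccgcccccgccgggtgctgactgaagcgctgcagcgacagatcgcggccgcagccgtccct
Sesn2, chr4:132510407-132510706, minus strand: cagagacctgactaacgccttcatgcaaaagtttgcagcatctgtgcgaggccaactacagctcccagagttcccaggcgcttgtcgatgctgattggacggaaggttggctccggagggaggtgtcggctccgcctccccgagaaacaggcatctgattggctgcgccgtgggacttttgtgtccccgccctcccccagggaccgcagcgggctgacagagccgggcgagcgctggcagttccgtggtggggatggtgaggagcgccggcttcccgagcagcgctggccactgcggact

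The half-site consensus was found in 6 of the 13 member windows, in 1 window of each of 6 members, against 8.36% of all 32851 windows of the table. In Mdm2 and Ccng1 the match began at -186 and -185 relative to the start. The upstream Cdkn1a window held 2 matches, at -73 and -51, and the Sesn1 window held 1 match at -173. Gadd45a and Bax each had 1 match, at -40 and -201, and the Sesn2, Phlda3 and Bbc3 windows had none. The GC box (GGGCGG, either strand) was present in 11 of the 13 member windows and in 35.7% of all windows. The CCAAT box (CCAAT, either strand) was present in 7 member windows and in 37.4% of all windows, and the TATA box (TATAAA, either strand) in 0 member windows and 13.6% of all windows. No half-site match overlapped another of these motifs. A match describes the letters only, and Mdm2 and Cdkn1a, whose windows both hold half-sites, moved in opposite directions in TOM positive cells.

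Library totals ran from 13506018 to 27827853 counts, and gene positions are those of the GENCODE vM30 annotation on which the AAV libraries were counted. Counts per 1000000 (CPM) are on totals scaled by the TMM method. Within each group every pair of libraries differed by more than sampling noise. AAV-GFP replicate 2 stood apart, with a chi-square per degree of freedom of 248.1 and 261.0 against its 2 partners, where all other pairs within a group had 135.1 or less. AAV-GFP replicate 3 had 7.20% of its counts on mitochondrially encoded genes, and the other AAV libraries had 1.44% to 2.63%. AAV-Cre libraries had a count for 14747 to 16988 genes and AAV-GFP libraries for 20778 to 23902 genes. Otp, the floxed gene, had 12, 9 and 10 counts after AAV-Cre, against 91, 102 and 38 counts after AAV-GFP. The sorted cells are called neurons in the study's design. Yet 10 pan-neuronal markers summed to 0.0384% to 0.0447% of counts in TOM positive cells, where 10 oligodendrocyte markers summed to 9.03% to 10.03%, so the groups are called here by their sort. The same neuronal list summed to 0.00437% to 0.00732% in TOM negative cells. It summed to 0.200% to 0.232% after AAV-Cre and 0.110% to 0.199% after AAV-GFP, where oligodendrocyte markers summed to 5.27% to 6.44% after AAV-Cre and 1.40% to 4.77% after AAV-GFP.

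The members were present at moderate to low levels in every group. Their summed level was 669 ± 14.03 CPM (SD, n = 3) in TOM positive cells and 668 ± 43.4 CPM (SD, n = 3) in TOM negative cells. After AAV-Cre it was 443 ± 65.2 CPM, and it was 508 ± 74.4 CPM after AAV-GFP (SD, n = 3 each). Levels between genes were compared per kilobase of exon, as fragments per kilobase per 1000000 (FPKM). Phlda3, which encodes a repressor of AKT signalling, was the highest member in every group, at 133 ± 16.1 FPKM in TOM positive cells, 99.6 ± 16.5 FPKM in TOM negative cells, 64.4 ± 0.939 FPKM after AAV-Cre and 65.4 ± 13.9 FPKM after AAV-GFP (SD, n = 3). Bax, which encodes a pore-forming protein of the mitochondrial outer membrane, was next in every group, and its libraries overlapped those of Phlda3 in TOM negative and AAV-GFP cells. Sesn2 was the lowest member in TOM positive cells, at 2.57 ± 0.522 FPKM, where it overlapped Bbc3, and Trp53inp1 was the lowest in each of the other groups, where its libraries overlapped those of the next member up.

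**Figure D1:**
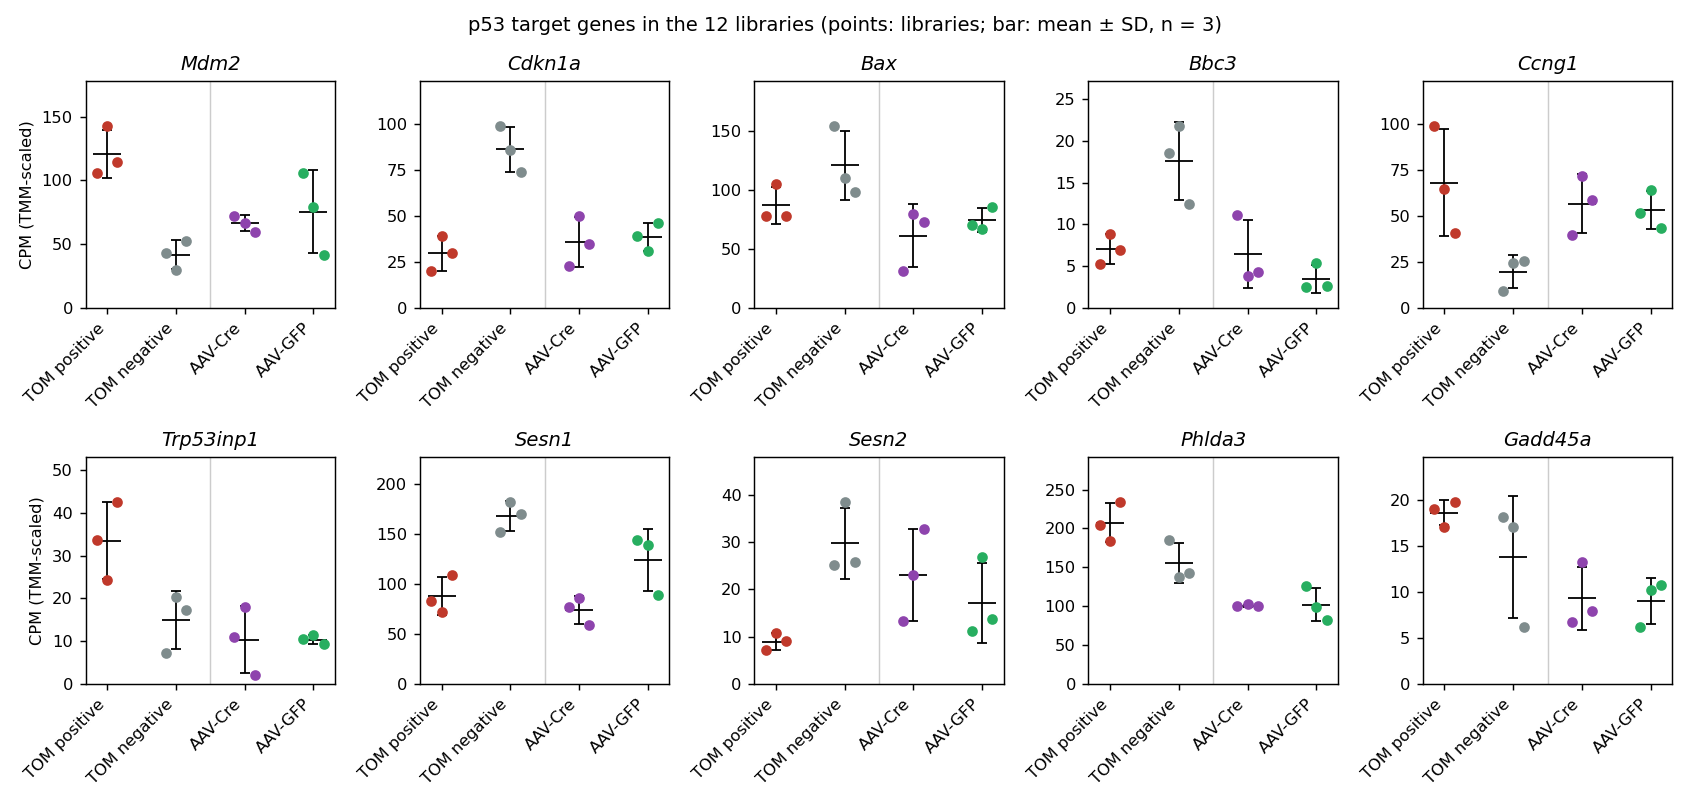
Levels of the 10 p53 target genes in CPM on TMM-scaled totals, by group, with each point a library and the bar the mean ± SD (n = 3). Mdm2 has its 3 TOM positive libraries at 106 to 142 CPM, above all 3 TOM negative libraries, Cdkn1a has the opposite order, and the AAV-Cre and AAV-GFP points overlap in every panel but that of Sesn1.

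In TOM positive cells the targets split, with some higher and others lower than in TOM negative cells. Mdm2, the ligase that restrains p53, and Ccng1, which encodes the p53-induced cyclin G1, rose. Cdkn1a, which encodes the cell cycle inhibitor p21, and the stress-induced sestrins Sesn1 and Sesn2 fell. Bax, Bbc3, Trp53inp1, Phlda3 and Gadd45a did not pass the test. So 5 of 10 members passed (2 higher and 3 lower), where 23.9% of the 15228 genes tested passed (10.4% higher and 13.4% lower). With a library left out 2 to 5 members passed, with 3 without TOM positive replicate 1 and 2 without TOM negative replicate 2. The members' median log2 fold change was -0.03, and that of all genes tested was -0.02.

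Mdm2 on chromosome 10 (117524780 to 117546663, minus strand) had 106, 142 and 114 CPM in TOM positive libraries, against 43.4, 30.1 and 52.2 CPM in TOM negative libraries. Its lowest TOM positive library was above its highest TOM negative library. The log2 fold change was 1.53 ± 0.25 (SE, edgeR quasi-likelihood test, adjusted p = 0.00608), and it passed with any 1 of the 6 libraries left out. Mdm2 was thus the member whose rise held in every such fit.

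Cdkn1a, on chromosome 17 (29309950 to 29319701, plus strand), had 20.3, 39.1 and 29.7 CPM in TOM positive libraries, against 98.5, 85.5 and 74.0 CPM in TOM negative libraries. Its product p21 blocks cyclin-dependent kinases and is the classical arrest arm of the p53 response. All 3 TOM positive libraries were below all 3 TOM negative libraries. The log2 fold change was -1.53 ± 0.28 (SE, edgeR adjusted p = 0.00941), and it too passed with any 1 library left out. Its exons share 7.68% of their bases with 1700023B13Rik on the other strand. Reads there cannot be assigned by strand in the AAV libraries, and whether the TOM libraries were counted by strand is not stated.

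Both genes can be set against each other inside a library, where depth and scaling cancel. The ratio of Mdm2 to Cdkn1a in FPKM was 3.66, 2.54 and 2.69 in TOM positive libraries, against 0.308, 0.246 and 0.493 in TOM negative libraries. In AAV-Cre libraries it was 2.22, 0.937 and 1.20, against 1.89, 1.80 and 0.629 in AAV-GFP libraries. Mdm2 was thus above Cdkn1a per length in each TOM positive library and below it in each TOM negative library, while the AAV groups overlapped.

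Ccng1, on chromosome 11 (40639379 to 40646138, minus strand), encodes cyclin G1, which binds a phosphatase that acts on MDM2. It had 98.6, 64.4 and 40.9 CPM in TOM positive libraries, against 9.44, 24.2 and 25.7 CPM in TOM negative libraries. The groups did not overlap, but the TOM positive libraries spread 2.41-fold. The log2 fold change of 1.78 ± 0.47 (SE) passed in edgeR (adjusted p = 0.0325), yet it passed in only 1 of the 6 fits with a library left out (that without TOM positive replicate 3), where the adjusted p reached 0.0988. Gadd45a, a stress sensor that acts in growth arrest and repair (chromosome 6, 67012080 to 67014441, minus strand), had 19.04, 17.1 and 19.8 CPM in TOM positive libraries, against 18.2, 17.0 and 6.13 CPM in TOM negative libraries. Its groups overlapped, with 1 low TOM negative library, and the log2 fold change was 0.44 ± 0.47 (SE, edgeR adjusted p = 0.553). Its exons share 19.1% of their bases with E230016M11Rik on the other strand.

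The sestrins restrain the growth kinase complex mTORC1. Sesn1, on chromosome 10 (41685931 to 41784420, plus strand), had 82.4, 72.1 and 109 CPM in TOM positive libraries, against 152, 182 and 169.7 CPM in TOM negative libraries. The groups did not overlap, and the log2 fold change was -0.94 ± 0.20 (SE, edgeR adjusted p = 0.0146). Leaving out TOM positive replicate 1 or TOM negative replicate 2 ended the call, with adjusted p = 0.0547 and 0.0696 in edgeR. Sesn2, on chromosome 4 (132219343 to 132237812, minus strand), is also a known target of ATF4, the factor of the integrated stress response. It had 7.06, 10.7 and 9.10 CPM in TOM positive libraries, against 25.1, 38.5 and 25.8 CPM in TOM negative libraries. These groups did not overlap either, and the log2 fold change was -1.73 ± 0.35 (SE, edgeR adjusted p = 0.013). The call was lost only without TOM negative replicate 2 (adjusted p = 0.0726 by edgeR).

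Among the members that act in apoptosis, none passed. Bax, on chromosome 7 (45111121 to 45116322, minus strand), had 78.3, 105 and 77.9 CPM in TOM positive libraries, against 154, 111 and 98.7 CPM in TOM negative libraries. These groups overlapped, and the log2 fold change was -0.47 ± 0.23 (SE, edgeR adjusted p = 0.186). Bax shares 12.2% of its exon bases with Gm45808 on the same strand. Bbc3, which encodes the BH3-only protein PUMA (chromosome 7, 16042318 to 16052130, plus strand), had 5.27, 8.84 and 6.94 CPM in TOM positive libraries, against 18.5, 21.7 and 12.4 CPM in TOM negative libraries. All its TOM positive libraries were below all its TOM negative libraries, yet the log2 fold change of -1.32 ± 0.43 (SE) missed the threshold in edgeR (adjusted p = 0.0645) and passed it in DESeq2 (adjusted p = 0.0221). Trp53inp1, whose product acts in apoptosis and autophagy downstream of p53 (chromosome 4, 11156431 to 11174379, plus strand), had 33.7, 24.4 and 42.6 CPM in TOM positive libraries, against 7.28, 20.3 and 17.3 CPM in TOM negative libraries. Its groups did not overlap, and its log2 fold change was 1.16 ± 0.45 (SE, edgeR adjusted p = 0.103).

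Phlda3, on chromosome 1 (135693857 to 135696874, plus strand), had 205, 184 and 234 CPM in TOM positive libraries, against 185, 138 and 143 CPM in TOM negative libraries. The lowest TOM positive library lay just under the highest TOM negative library. Its log2 fold change was 0.42 ± 0.18 (SE, edgeR adjusted p = 0.137). On library totals without scaling factors it was 0.68 and passed (edgeR adjusted p = 0.0241), a setting that moved the median of all genes up by 0.26 on the log2 scale. The same setting turned the split of all calls to 2204 higher and 1532 lower, where TMM gave 1589 higher and 2046 lower. The direction of every member was the same under TMM, under RLE size factors and without scaling factors in this comparison. Over the 10 members, 3 were higher and 4 were lower without overlap between groups, and 46.4% of all genes tested did not overlap (20.7% higher and 25.6% lower).

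**Figure D2:**
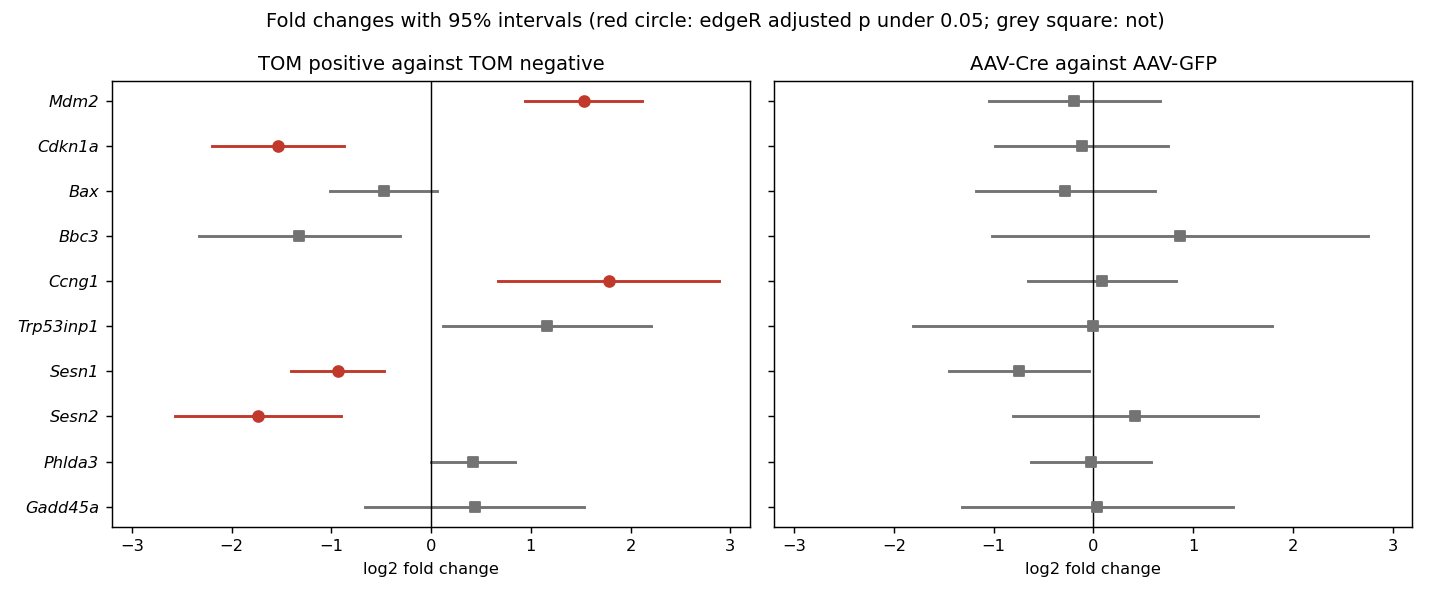
Log2 fold changes of the 10 members with 95% intervals, for TOM positive against TOM negative cells on the left and AAV-Cre against AAV-GFP cells on the right. On the left Mdm2 (1.53) and Ccng1 (1.78) lie to the right of 0 and Cdkn1a (-1.53), Sesn1 (-0.94) and Sesn2 (-1.73) to the left as red circles, and on the right every member is a grey square.

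After AAV-Cre no member differed from AAV-GFP beyond the spread between libraries by the test used. In edgeR 0 of 10 members passed, where 2.6% of the 15408 genes tested passed (0.63% higher and 1.97% lower). At an unadjusted edgeR p under 0.05 there was 1 of 10 members, Sesn1, where there were 2896 of the 15408 genes tested. DESeq2 also called 0 of 10 members, where it called 1531 of 15408 genes. The members' median log2 fold change was -0.01 and that of all genes was -0.16. In size regardless of direction, the median log2 fold change was 0.15 for the members and 0.65 for all genes tested. In the TOM comparison the same median was 1.24 for the members and 0.85 for all genes tested. All genes were not matched to the members in count level. The intervals below show how large a difference these 6 libraries leave possible, since a p above the threshold does not show equal levels.

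Mdm2 had 72.3, 66.6 and 59.9 CPM after AAV-Cre, against 106, 79.3 and 41.4 CPM after AAV-GFP. The AAV-Cre libraries fell inside the wider AAV-GFP range, and the log2 fold change was -0.19, with a 95% interval of -1.05 to 0.67. Cdkn1a had 22.8, 49.6 and 34.8 CPM after AAV-Cre, against 39.1, 30.9 and 46.1 CPM after AAV-GFP. Its groups overlapped, with a log2 fold change of -0.12 and an interval of -0.98 to 0.75. A doubling, which is 1 on the log2 scale, lies above both intervals with all 6 libraries, but inside them without AAV-GFP replicate 1 (upper limits 1.07 for Mdm2 and 1.03 for Cdkn1a) and, for Cdkn1a, without AAV-GFP replicate 3 (1.17). Phlda3, at 99.5, 102 and 99.6 CPM after AAV-Cre, against 125, 98.3 and 82.2 CPM after AAV-GFP, had the narrowest interval, -0.63 to 0.58 around -0.02.

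Ccng1 had 39.9, 71.5 and 58.4 CPM after AAV-Cre, against 51.5, 64.2 and 43.7 CPM after AAV-GFP, with a log2 fold change of 0.09 and an interval of -0.65 to 0.83. Gadd45a had 6.72, 13.2 and 7.95 CPM after AAV-Cre, against 6.14, 10.2 and 10.7 CPM after AAV-GFP, with a log2 fold change of 0.04 and an interval of -1.32 to 1.41. Neither growth-arrest gene separated the groups, and the interval of Gadd45a spans a change of more than 1 on the log2 scale either way.

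Among the apoptosis genes, Bax had 31.2, 80.2 and 73.0 CPM after AAV-Cre, against 70.8, 67.1 and 85.9 CPM after AAV-GFP (log2 fold change -0.28, interval -1.18 to 0.62). Bbc3 had 11.1, 3.79 and 4.32 CPM after AAV-Cre, against 2.48, 5.42 and 2.60 CPM after AAV-GFP. AAV-Cre replicate 1 was thus the highest library for Bbc3 and the lowest for Bax. The log2 fold change of Bbc3 was 0.87, with an interval of -1.01 to 2.75, and 0.21 without AAV-Cre replicate 1. Trp53inp1 had 11.02, 17.9 and 2.06 CPM after AAV-Cre, against 10.4, 11.4 and 9.27 CPM after AAV-GFP. Its low library held 30 counts, and its interval of -1.80 to 1.79 around -0.01 was the widest but for that of Bbc3.

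Sesn1 was the member with the smallest p. It had 76.9, 85.7 and 58.8 CPM after AAV-Cre, against 144, 139 and 88.5 CPM after AAV-GFP, and its groups did not overlap, as was so for 28.5% of all genes tested (18.6% of them lower and 9.87% higher, as shares of all genes). The log2 fold change was -0.75 (interval -1.45 to -0.05), with an edgeR p of 0.0394 that became 0.237 after adjustment over all genes. Sesn2 had 13.3, 23.0 and 32.8 CPM after AAV-Cre, against 11.1, 26.8 and 13.6 CPM after AAV-GFP, with a log2 fold change of 0.42 and an interval of -0.80 to 1.65. The pair of sestrins thus had estimates of opposite sign, and neither passed.

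Because AAV-GFP replicate 2 stood apart, the AAV comparison was also fitted without it. Again 0 of 10 members passed, and Sesn1 had a log2 fold change of -0.67 (interval -1.41 to 0.08), Mdm2 one of -0.17 and Cdkn1a one of -0.27. In that fit 2 genes of the whole table passed in edgeR, and without AAV-GFP replicate 1 or 3 there were 0. On library totals without scaling factors the calls over all genes were 127 higher and 241 lower, against 97 higher and 303 lower with TMM.

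**Figure D3:**
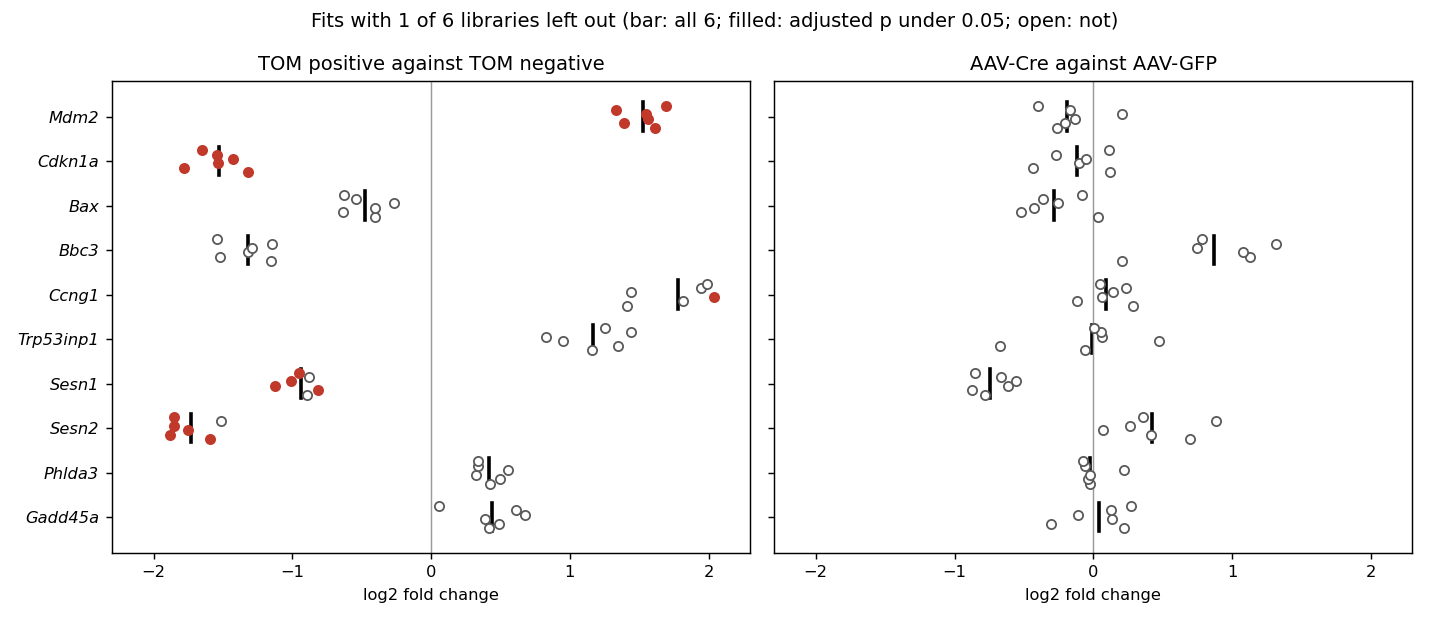
Log2 fold changes of the 10 members when each of the 6 libraries of a comparison is left out in turn, with the fit on all 6 as a black bar, filled points past the threshold and open points not. Mdm2 and Cdkn1a have 6 filled points in the TOM comparison, Ccng1 has 1, and all points of the AAV comparison are open.

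Across the 4 groups, set side by side without a test because tissue, age, genotype and sort differ, Mdm2 averaged 121 ± 18.95 CPM in TOM positive cells, 41.9 ± 11.1 CPM in TOM negative cells, 66.2 ± 6.24 CPM after AAV-Cre and 75.6 ± 32.4 CPM after AAV-GFP (SD, n = 3 each). Its mean was thus highest in TOM positive and lowest in TOM negative cells, and the AAV-GFP libraries overlapped those of both the AAV-Cre and the TOM negative groups. Cdkn1a averaged 29.7 ± 9.41 CPM in TOM positive cells, 86.0 ± 12.3 CPM in TOM negative cells, 35.7 ± 13.5 CPM after AAV-Cre and 38.7 ± 7.60 CPM after AAV-GFP (SD, n = 3 each). It was highest in TOM negative cells, and the other 3 groups overlapped with their neighbours. TOM negative cells, which were sorted as lacking the reporter, thus stood apart from the other 3 groups for Cdkn1a, and likewise for Bbc3, Sesn1 and Ccng1. For Bbc3 and Sesn1 they were the highest group and for Ccng1 the lowest, without overlap with any other group in CPM. The TMM factors were fitted within each comparison, so this CPM has no common scale across the 4 groups. The gaps were narrow for Bbc3 (12.4 CPM in the lowest TOM negative library, 11.1 CPM in the highest AAV-Cre library). They were also narrow for Sesn1 (152 CPM in the lowest TOM negative library, 144 CPM in the highest AAV-GFP library). The share of all genes that stand apart in this way was not counted, so these genes are not read as a result about the members. Between TOM positive and TOM negative cells alone, 46.4% of all genes tested did not overlap.

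Genes around the pathway were counted from lists of known roles. In the TOM comparison 23.9% of the 15228 genes tested passed in edgeR (10.4% higher and 13.4% lower). The counts of each list are to be read beside those shares. Of 19 other p53 targets tested in the TOM comparison, 0 rose and 3 fell (Btg2, Ddit4 and Pmaip1), 16 did not pass, and the median log2 fold change was -0.04. Btg2, an antiproliferative gene that is also switched on early after many stimuli, had 65.1, 82.7 and 78.0 CPM in TOM positive libraries, against 932, 831 and 899 CPM in TOM negative libraries (log2 fold change -3.56 ± 0.16, edgeR adjusted p = 6.08e-05). This gap is wide beside the spread within either group, and it passed with any 1 library left out. Pmaip1, which encodes the BH3-only protein NOXA, had 37, 15 and 1 counts in TOM positive libraries, against 299, 217 and 290 counts in TOM negative libraries, with an edgeR adjusted p of 0.048. Ddit4, an inhibitor of mTORC1 like the sestrins, changed by -1.25 ± 0.37 on the log2 scale (edgeR adjusted p = 0.0456), and each of these 2 genes passed in 2 of the 6 fits with a library left out.

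Trp53 itself fell in TOM positive cells. It had 37.4, 33.8 and 26.1 CPM in TOM positive libraries, against 92.9, 85.0 and 61.6 CPM in TOM negative libraries, and it changed by -1.30 ± 0.25 on the log2 scale (edgeR adjusted p = 0.0105). The groups did not overlap, and the call was lost only without TOM negative replicate 2 (adjusted p = 0.0557 by edgeR). Of 14 genes for p53 and its regulators tested, 2 rose and 1 fell, and the median log2 fold change was 0.87. The 2 that rose were Cop1, a ubiquitin ligase for p53 (1.58 ± 0.41, edgeR adjusted p = 0.0305), and Hipk2, a kinase that phosphorylates p53 (1.35 ± 0.38, edgeR adjusted p = 0.0416), and each passed in 1 of 6 fits with a library left out.

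Of 14 BCL-2 family and caspase genes tested, 1 rose and 4 fell, with a median of 0.09. Mcl1, which encodes an anti-apoptotic BCL-2 relative, had 87.7, 96.3 and 109 CPM in TOM positive libraries, against 190.0, 239 and 272 CPM in TOM negative libraries (log2 fold change -1.26 ± 0.19, edgeR adjusted p = 0.00409). Casp9, the initiator caspase of the mitochondrial pathway, had a log2 fold change of -1.23 ± 0.33, and the BH3-only gene Bmf had -2.38 ± 0.65, with edgeR adjusted p of 0.0357 and 0.0368. The BH3-only gene Bid also fell (-2.26 ± 0.66, edgeR adjusted p = 0.0453), and Diablo, which encodes an antagonist of caspase inhibitors, rose by 0.98 ± 0.27 (edgeR adjusted p = 0.0393). So genes that promote apoptosis were found in both directions, and of Mcl1, Casp9, Bmf and Diablo, Mcl1 passed with any 1 library left out and the others in 1 or 2 of 6 fits.

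In the list drawn up for the integrated stress response the calls went 1 way, where 0 of 10 tested rose and 6 fell (median log2 fold change -1.40). The other 4 did not pass, and the label is loose for some of the genes, such as Xbp1. Atf3, a stress-induced transcription factor, had 17.8, 4.66 and 9.99 CPM in TOM positive libraries, against 287, 222 and 195 CPM in TOM negative libraries (log2 fold change -4.44 ± 0.50, edgeR adjusted p = 0.00138). Cebpb, Ppp1r15a and Xbp1 had log2 fold changes of -4.55 ± 0.34, -2.26 ± 0.14 and -1.65 ± 0.13, with edgeR adjusted p of 0.000292, 0.000155 and 0.000358. All 4 passed with any 1 library left out, and Ppp1r15a encodes the GADD34 subunit that reverses the block on translation. Of 9 family relatives of the members tested, 0 rose and 3 fell, namely Gadd45b, Ccng2 and Ccni. Gadd45b changed by -3.23 ± 0.58 on the log2 scale (edgeR adjusted p = 0.00869), where Gadd45a did not pass. Ccng2 had one of -1.05 ± 0.17 (edgeR adjusted p = 0.006), where Ccng1 rose. Ccni changed by -0.81 ± 0.20 on the log2 scale (edgeR adjusted p = 0.0251), but it passed in 2 of the 6 fits with a library left out, where the adjusted p reached 0.104, and not without scaling factors (adjusted p = 0.0912).

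**Figure D4:**
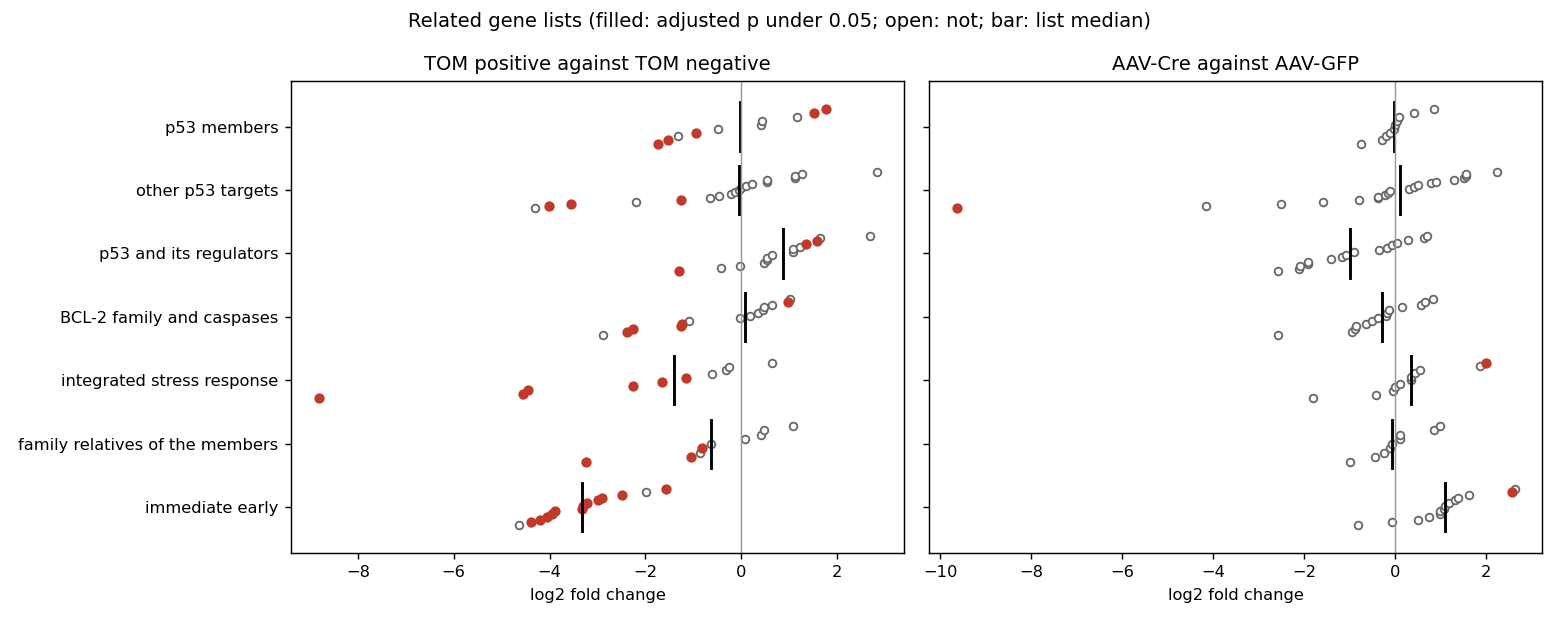
Log2 fold changes of the genes tested in each list, with the list median as a bar and filled points past the threshold, for TOM positive against TOM negative cells on the left and AAV-Cre against AAV-GFP cells on the right. The leftmost points, Trib3 on the left and Perp on the right, have 0 counts in all 3 libraries of the group given first, so their place depends on the prior count and is no measured fold.

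After AAV-Cre the same lists held few calls, as did the whole table, where 2.6% of the 15408 genes tested passed in edgeR. Of 20 other p53 targets tested, 0 rose and 1 fell, with a median of 0.10. The gene that fell was Perp, which encodes a p53-induced membrane protein of desmosomes. It had 0 counts in all 3 AAV-Cre libraries, against 241, 44 and 53 counts in AAV-GFP libraries, which is at least 108-fold lower by a floor of 3 counts over the group, a bound for counting error only. Its edgeR adjusted p was 0.04997, and it passed in 0 of the 6 fits with a library left out. Beside it, the 5 ependymal markers summed to 15.9 to 22.8 CPM in AAV-Cre libraries and 791 to 1608 CPM in AAV-GFP libraries, the 8 endothelial markers to 22.1 to 36.4 CPM in AAV-Cre libraries and 185 to 389 CPM in AAV-GFP libraries, and their part in the result was not tested.

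Of 11 genes of the integrated stress response list tested after AAV-Cre, 1 rose and 0 fell, with a median of 0.36. That gene was Atf3, with 185, 237 and 249 CPM after AAV-Cre, against 40.8, 67.6 and 58.8 CPM after AAV-GFP (log2 fold change 2.00 ± 0.30, edgeR adjusted p = 0.0258). Its groups were far apart, but it passed in 1 of 6 fits with a library left out (that without AAV-Cre replicate 1), where the adjusted p reached 0.135. In 14 immediate early genes, 12 had a positive log2 fold change, as did 42.8% of all genes tested. Of the 14, 1 passed, Egr2, named after its values were seen. Of 16 genes for p53 and its regulators, 14 BCL-2 family and caspase genes and 9 family relatives tested, 0 passed in edgeR. At an unadjusted edgeR p under 0.05 there were 1, 3 and 0 of them, where there were 2896 of all 15408 genes tested. The smallest p values in these lists were those of Rchy1, Cycs and Cdkn1c. Rchy1, a ubiquitin ligase for p53, changed by -0.89 ± 0.33 on the log2 scale (edgeR adjusted p = 0.204). Cycs, which encodes cytochrome c, had -0.87 ± 0.32 (edgeR adjusted p = 0.202) and Cdkn1c -0.99 ± 0.62 (edgeR adjusted p = 0.445). Next in the same lists were Crebbp at -1.17 ± 0.55, Hrk at -2.57 ± 1.08 and Phlda1 at 0.99 ± 0.66 (edgeR adjusted p = 0.307, 0.254 and 0.479). Trp53 had 29.6, 18.9 and 19.1 CPM after AAV-Cre, against 21.98, 12.2 and 31.0 CPM after AAV-GFP, and the groups overlapped.

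Markers of other cell types moved with the same sorts. In bulk libraries, fewer cells of a type and less RNA per cell cannot be told apart. In TOM positive cells all 10 microglial markers fell, and they summed to 423 to 998 CPM, against 25044 to 29601 CPM in TOM negative cells, with none at 0 in all libraries of either group. All 10 oligodendrocyte markers rose, to 81963 to 92655 CPM in TOM positive cells, against 19839 to 26217 CPM in TOM negative cells. All 5 blood markers fell, to 223 to 443 CPM in TOM positive cells, against 22571 to 51316 CPM in TOM negative cells. Of 14 immediate early genes 12 fell and 0 rose, and they summed to 1250 to 1488 CPM in TOM positive cells, against 13498 to 16636 CPM in TOM negative cells. The part of these differences in the values of Mdm2, Cdkn1a, Ccng1, Sesn1, Sesn2 and Trp53 was not tested.

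In the AAV comparison, 4 of 5 ependymal, 2 of 5 blood and 2 of 7 endothelial markers tested fell, and 3 of 10 oligodendrocyte markers and 1 of 10 microglial markers rose. The microglial markers summed to 5359 to 10533 CPM after AAV-Cre and 2737 to 4846 CPM after AAV-GFP, and the oligodendrocyte markers to 48829 to 62715 CPM after AAV-Cre and 14740 to 53838 CPM after AAV-GFP. Emcn, Cdh5 and Tie1 of the endothelial list were at 0 in all 3 AAV-Cre libraries.

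**Figure D5:**
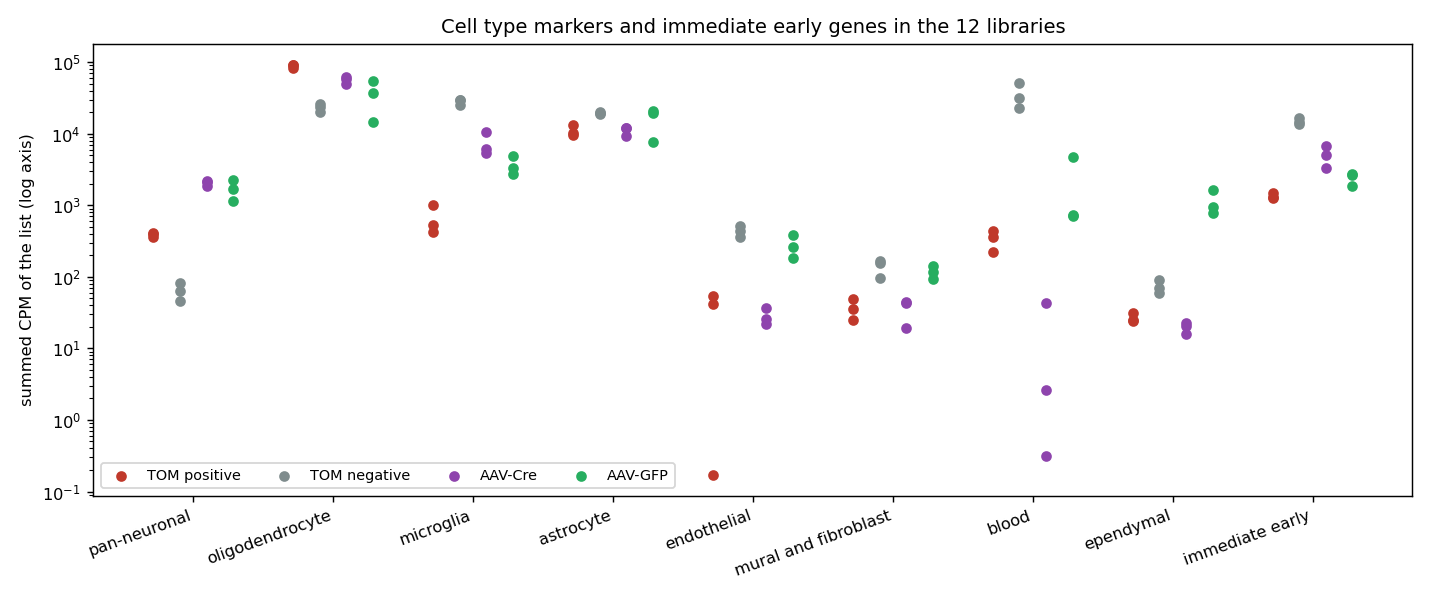
Summed CPM of each marker list in every library, on a log axis, with TOM positive and TOM negative points on the left of each set and AAV-Cre and AAV-GFP points on the right. Microglial, blood and immediate early sums are lower in TOM positive than in TOM negative libraries, oligodendrocyte sums are higher, and ependymal sums are lower after AAV-Cre than after AAV-GFP.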

How the data were processed

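Per the labels' protocols, sorted cells went into Trizol and mRNA libraries were built with a SMART-Seq kit, with no molecular identifiers described. Copies made by PCR are thus counted, and a bound from counts covers counting error alone. The authors deposited raw counts for each gene symbol. The reads, per the submitters' processing notes, were handled with Trim Galore, FastQC, STAR and featureCounts on mm10. For the AAV tables featureCounts 2.0.1 was run on read pairs without strand and on GENCODE vM30, per the file headers. How the TOM table was counted is not stated in the sources used here. The mm10 build and that annotation differ in assembly, so gene coordinates are those of vM30 as the files give them, promoter coordinates are those of GRCm38.p6, and none was converted. The single files of the 6 AAV libraries were identical to the joint table.

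The 6 libraries of a comparison were fitted apart from the others in edgeR 4.0.16 (R 4.3.3). Scaling was by TMM, low genes were removed by filterByExpr at a minimum count of 10, and the test was the two-sided quasi-likelihood test with Benjamini-Hochberg adjustment over all genes tested and a threshold of 0.05. "Rose" and "fell" are used only past that threshold. Standard errors were derived from the quasi-likelihood F statistic, and 95% intervals from the t distribution. CPM was computed from the deposited counts on TMM-scaled totals, and FPKM by dividing CPM by the summed exon length in kilobases. Values are mean ± SD, and fold changes estimate ± SE. Where a group held 0 counts, the fold was computed against 3 counts over the group.

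The members and the gene lists were chosen with earlier results of these data known. All 10 members were named. From each of 5 related lists the up to 4 genes with the smallest p among those past the threshold were named, or 2 where none passed it. Outside that rule Bid and Trib3 were named in the TOM comparison and Trp53 and Egr2 in the AAV comparison. Hipk2, Cop1, Mcl1 and Ppp1r15a were also given with their AAV values outside that rule. The alternatives were RLE size factors, no scaling factors, no count filter, DESeq2 1.42.0, a replicate block, robust dispersion, mitochondrially encoded genes removed, and each library left out. The steps were tested on simulated data. Of 100 genes set to differ by 1 on the log2 scale in either direction, 14% were recovered in the TOM comparison. In the AAV comparison 4% of 100 such genes were recovered. For 100 genes set to differ by 3, the shares were 90% in the TOM comparison and 83% in the AAV comparison. Only these genes were changed, among 15228 and 15408 genes run, and each gene was given the trended dispersion. In the real TOM comparison 23.9% of genes passed, which makes the adjustment less strict than in the simulation. The shares are therefore not the power of the real comparisons.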

Additional observations from a re-analysis of the deposited data

How the results depend on the processing

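In the TOM comparison the direction of each of the 10 members was the same under all 13 alternatives, and 5 members passed in the main setting, against 4 with a replicate block, 6 with DESeq2 and 6 without scaling factors, and 2 to 5 with a library left out. The lowest counts were 3 without TOM positive replicate 1 and 2 without TOM negative replicate 2. With the replicate block Ccng1 no longer passed (edgeR adjusted p = 0.104), and 1987 genes passed instead of 3635. With a library left out 1511 to 3547 genes passed. Without scaling factors the summed level of the members moved to 733 CPM in the TOM positive group and to 609 CPM in the TOM negative group. In the AAV comparison 0 of 10 members passed under every alternative, the replicate block and DESeq2 included, where the genes passing were 400 in the main setting, 712 without a count filter, 1531 with DESeq2, 0 with the replicate block and 0 to 296 with a library left out. The same-numbered libraries had correlations of -0.07 to 0.03 in their deviations from group means. Values from 3 libraries per group cannot show whether such pairs share animals or a sort, and the labels do not say. The cause of the shifts in the numbers passing was not tested.

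Estimates near 0 changed sign in the AAV comparison. Cdkn1a was 0.0404 without scaling factors. Trp53inp1 was 0.0413 with RLE, 0.129 without scaling factors and 0.0414 with DESeq2, and Phlda3 was 0.0193, 0.121 and 0.0191 in the same settings. With a library left out, Mdm2 ran from -0.40 to 0.21, Cdkn1a from -0.43 to 0.12, Bax from -0.52 to 0.0315, Ccng1 from -0.12 to 0.28, Trp53inp1 from -0.67 to 0.47, Phlda3 from -0.071 to 0.22 and Gadd45a from -0.30 to 0.27, all on the log2 scale. In the TOM comparison edgeR no longer called Ccni, Pmaip1, Cop1, Hipk2, Bmf and Diablo with the replicate block (adjusted p = 0.0871, 0.0743, 0.0873, 0.0858, 0.0952 and 0.0965), Ccni, Ddit4, Pmaip1, Casp9 and Bmf without scaling factors (0.0912, 0.0977, 0.0617, 0.0791 and 0.0557), and Ddit4, Bmf and Diablo without a count filter (0.0542, 0.0642 and 0.0681). After AAV-Cre Perp lost its call without scaling factors (edgeR adjusted p = 0.0526), with robust dispersion (0.0622) and with the replicate block (0.254), and Atf3 lost it with the replicate block (0.146). Bbc3, Gadd45a and Trp53inp1 had the lowest counts of the members, with 37, 108 and 30 counts in their lowest libraries. The part of depth in their spread was not tested.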

Other observations

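Several genes around the p53 pathway had a single high library, AAV-GFP replicate 2, and were picked out after their values were seen. That library stood apart over the whole table (chi-square per degree of freedom 248.1 and 261.0 against its partners). The share of all genes with such a pattern was not counted, so it is not read as particular to these genes. Hipk2, a kinase that phosphorylates p53, had 160, 140 and 176 CPM after AAV-Cre, against 142, 1517 and 141 CPM after AAV-GFP. Cop1, a ubiquitin ligase for p53, had 69.7, 72.0 and 81.5 CPM after AAV-Cre, against 67.0, 477 and 50.8 CPM after AAV-GFP. Mcl1, an anti-apoptotic gene, had 79.0, 96.7 and 108 CPM after AAV-Cre, against 34.2, 448 and 62.8 CPM after AAV-GFP. Hrk, a BH3-only gene, had 12.2, 8.80 and 3.84 CPM after AAV-Cre, against 7.22, 127 and 13.3 CPM after AAV-GFP. None of the 10 p53 target genes had AAV-GFP replicate 2 at such a distance from its partners. Ppp1r15a ran the other way, with 209, 752 and 415.5 CPM after AAV-Cre, against 226, 46.6 and 102 CPM after AAV-GFP, where AAV-GFP replicate 2 was the lowest library.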
